A study of Homo sapiens with 33 samples.

Results

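HNRNPA2B1, HNRNPA3, HNRNPA0, HNRNPAB, HNRNPD and HNRNPDL are the A/B-type and D-type paralogues of HNRNPA1, the gene whose product carries the D262V substitution in this study. They were chosen by gene symbol as members of this family, with no measured value in the rule but with earlier results of these data known, and are 6 of the 44786 gene rows of the deposited count tables. All 6 were found in each of the 3 count tables. RefSeq GRCh38.p14 places the A/B-type genes HNRNPA2B1 at chr7:26189927-26200746 on the minus strand, HNRNPA3 at chr2:177212794-177223959 on the plus strand, HNRNPA0 at chr5:137745651-137754363 on the minus strand and HNRNPAB at chr5:178204533-178211163 on the plus strand. The D-type genes HNRNPD, at chr4:82352498-82373991, and HNRNPDL, at chr4:82422564-82430462, both lie on the minus strand. Each was also followed in the deposited splice-junction tables and in the lists of RNA segments crosslinked to hnRNPA1.

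The study asked how the D262V substitution in the low complexity domain of hnRNPA1 alters RNA splicing. RNA-seq covered 21 libraries in 7 groups of 3, and irCLIP, an infrared-dye form of crosslinking and immunoprecipitation that maps the RNA bound by a protein, covered 12 samples whose replicates were pooled into 4 lists. SH-SY5Y, a human neuroblastoma line, was measured undifferentiated as wild type (WT) and homozygous D262V cells. It was also measured as WT, homozygous and heterozygous D262V cells on day 18 of differentiation, for which all media held 10 µM retinoic acid and the final one also 50 ng/mL brain-derived neurotrophic factor (BDNF). Flp-In T-REx 293, a human embryonic kidney line, carried WT or D262V hnRNPA1 under tetracycline control, and all of its cells received 1 µg/mL tetracycline for 72 hr. The labels do not say how many clones stand for each SH-SY5Y genotype, what became of the kidney line's own hnRNPA1, or whether replicates were separate cultures. The p-values below therefore set differences against a spread between samples that could be technical. For the SH-SY5Y irCLIP samples the labels give neither zygosity nor differentiation.

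Proteins of this family carry a pair of RNA recognition motifs followed by a glycine-rich, low complexity tail. They bind nascent transcripts in the nucleus, influence the choice of splice sites, and accompany RNA to the cytoplasm, where several of them regulate its stability and translation. Many hnRNP genes, HNRNPA2B1 and HNRNPDL among them, make alternatively spliced transcripts that limit their own expression. Substitutions in the low complexity tails of hnRNPA1, hnRNPA2B1 and hnRNPDL cause inherited disease of motor neurons or muscle.

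Reads in genes ranged from 3619256 to 6845979 per undifferentiated library, from 8715318 to 15275303 per differentiated library and from 1994575 to 2914881 per kidney-line library. Markers fitted the labelled lines in part. Of 10 noradrenergic neuroblastoma markers, 8 reached a mean level of 1 CPM, the usual count unit scaled to the reads in genes of each library, in every SH-SY5Y group, with TH and CHGA at or near 0. The summed level of that list was 416 to 1280 CPM in SH-SY5Y and 5.6 to 13.3 CPM in the kidney line. The 5 neuronal markers summed to 148 to 272 CPM before differentiation and 701 to 1430 CPM after it. The 4 embryonic kidney markers summed to 5.6 to 14.1 CPM in the kidney line and 0.389 to 7.06 CPM in SH-SY5Y, ranges that overlap, and 4 glial markers summed to 3.18 to 28.8 CPM over all groups. Marker sums also differed with genotype, without overlap, in several comparisons. The neuronal list summed to 192 to 272 CPM in undifferentiated WT and 148 to 183 in homozygous libraries, and the noradrenergic list to 440 to 470 and 416 to 426. After differentiation the neuronal list summed to 752 to 808 CPM in WT, 981 to 1430 in homozygous and 701 to 834 in heterozygous libraries, of which only the homozygous group stood apart. The noradrenergic list summed to 918 to 943 CPM in WT, 1010 to 1280 in homozygous and 700 to 848 in heterozygous libraries. A mesenchymal list (VIM, FN1, COL1A1, COL3A1, SPARC) is given beside the results. All marker sums are gene counts and carry the limit on strand given with the gene counts below. The part of these lists in the paralogues' differences was not tested. In bulk RNA, fewer cells of a type and less RNA per cell cannot be told apart.

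In the undifferentiated cells, the junction-read sums described below fell for 3 of the paralogues, HNRNPA2B1, HNRNPA3 and HNRNPDL. The HNRNPA2B1 sum was mostly reads of a junction whose usage also changed, so its fall is no separate sign of a lower gene level. By gene counts edgeR called none of the 3, though DESeq2 called HNRNPA2B1 lower. The 250 bases upstream of the annotated starts of these 3 genes are shown because of those sums. They are from RefSeq GRCh38.p14, 5′ to 3′ on the gene's strand. Capitals mark exact matches, on either strand, to the CCAAT box (CCAAT), the GC box (GGGCGG) and the ETS core (CCGGAA), which do not overlap one another in these windows.
HNRNPA2B1, chr7:26200747-26200996, minus strand: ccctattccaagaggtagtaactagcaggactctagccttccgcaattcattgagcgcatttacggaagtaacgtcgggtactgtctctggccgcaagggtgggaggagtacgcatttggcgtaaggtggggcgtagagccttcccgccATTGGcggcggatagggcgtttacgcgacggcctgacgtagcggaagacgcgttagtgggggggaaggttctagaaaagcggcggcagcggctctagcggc
HNRNPA3, chr2:177212544-177212793, plus strand: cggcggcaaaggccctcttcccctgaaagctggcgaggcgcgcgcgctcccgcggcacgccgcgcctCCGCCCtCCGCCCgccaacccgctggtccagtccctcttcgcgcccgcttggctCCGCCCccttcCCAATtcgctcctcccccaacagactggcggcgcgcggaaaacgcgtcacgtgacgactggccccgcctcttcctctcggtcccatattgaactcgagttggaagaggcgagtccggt
HNRNPDL, chr4:82430463-82430712, minus strand: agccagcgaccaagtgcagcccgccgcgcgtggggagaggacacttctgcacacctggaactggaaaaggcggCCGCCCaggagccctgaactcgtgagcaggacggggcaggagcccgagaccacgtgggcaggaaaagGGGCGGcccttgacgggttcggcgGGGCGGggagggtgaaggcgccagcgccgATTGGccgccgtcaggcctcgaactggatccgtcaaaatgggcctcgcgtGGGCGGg
Each of the 3 windows held 1 CCAAT box. HNRNPA3 had 3 GC boxes, HNRNPDL had 4 and HNRNPA2B1 had none. Of 35116 human promoter windows of this length, 32.0% held a CCAAT box, 42.6% a GC box and 14.5% an ETS core. In the windows of the other members, HNRNPA0 had 1 CCAAT box and 1 GC box, and HNRNPAB had 2 CCAAT boxes and 3 GC boxes. HNRNPD had no CCAAT box but 1 GC box and 1 ETS core. For HNRNPDL the window upstream of the whole gene is shown. Its other annotated window, chr4:82430226-82430475, had no CCAAT box and 3 GC boxes. These matches describe the letters only.

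Gene-level counts showed the paralogues in all 7 groups. CPM values here were scaled over the 21 libraries together and are set side by side without a test between tables. The library kit was directional, per the labels, and the sources used here give no strand setting for the counting. If the counting read the opposite strand, these counts would hold antisense or residual reads and not the genes' own mRNA. That limit applies to every gene-count level, likeness and test below, and to the marker sums above. HNRNPA2B1 encodes the A2 and B1 isoforms of an abundant relative of hnRNPA1. Its mean level was lowest in undifferentiated homozygous cells at 51.5 ± 9.89 CPM (SD, n = 3) and next lowest in undifferentiated WT cells at 93.6 ± 16.7 CPM (SD, n = 3), and these neighbours did not overlap. Differentiated heterozygous cells (129 ± 11.5), WT cells (144 ± 6.91) and homozygous cells (161 ± 4.04 CPM) followed in that order, with heterozygous and WT libraries overlapping. The kidney-line groups were highest and overlapped each other, at 175 ± 16.2 CPM with D262V and 185 ± 32.7 CPM with WT.

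HNRNPA3, a close relative of hnRNPA2 that binds the same RNA trafficking element, ranged from 9.55 ± 3.1 CPM in undifferentiated WT cells to 51.6 ± 13.2 CPM in differentiated homozygous cells. Undifferentiated groups overlapped each other, as did the 3 differentiated groups. HNRNPA0, which binds AU-rich RNA, had group means of 9.46 to 22.8 CPM, and groups next to each other in that order overlapped. HNRNPAB, also called CArG-binding factor A, ran the other way within SH-SY5Y. It was highest in undifferentiated homozygous cells (84.2 ± 13.7 CPM) and lowest in differentiated homozygous cells (25.7 ± 1.38 CPM). HNRNPD encodes AUF1, which binds AU-rich elements and regulates mRNA decay, and HNRNPDL is its nearest relative, encoded near it on chromosome 4. HNRNPD had group means of 20.1 and 22.3 CPM in undifferentiated cells and 47.7 to 58.5 CPM elsewhere. HNRNPDL had 12.3 and 14.2 CPM in undifferentiated cells, 40.7 ± 6.63 CPM in differentiated heterozygous cells and 54.8 to 59.9 CPM in the other 4 groups. For both D-type genes the undifferentiated groups overlapped each other and lay below all other groups.

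**Figure D1:**
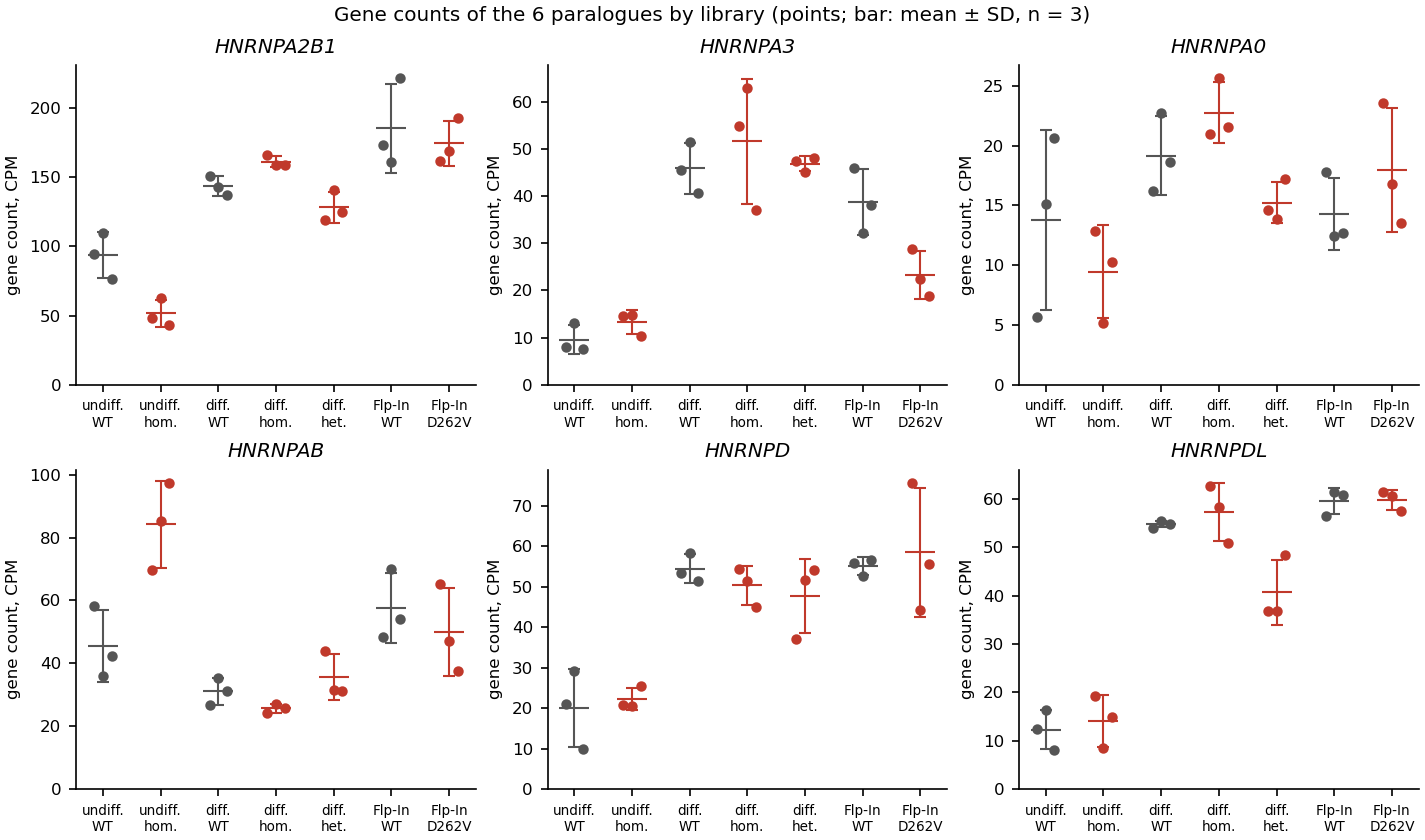
Gene-count CPM of each paralogue (vertical axis, starting at 0) in every library of the 7 groups (horizontal axis), with points for libraries and bars for the mean ± SD of 3. HNRNPA2B1 is lowest in undifferentiated homozygous cells, with a mean of 51.5 CPM, and HNRNPAB is highest there, with a mean of 84.2 CPM.

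Over the 7 group means, the gene with a pattern most like HNRNPD was FOXC1 (Pearson r of mean log2 CPM 0.999), followed by DDX3X (0.996) and HNRNPDL (0.992), among 4008 protein-coding genes with a mean of at least 10 CPM. HNRNPDL was most like CCT6A and HNRNPA2B1 most like BRIX1, with r of 0.995 and 0.994. HNRNPA3 was most like SNX14 (0.993), HNRNPA0 most like ATL1 (0.992) and HNRNPAB most like CARM1 (0.968). Points of 1 line and table share depth and processing, and 43, 73, 12, 5, 82 and 90 genes had r over 0.95 for HNRNPA2B1, HNRNPA3, HNRNPA0, HNRNPAB, HNRNPD and HNRNPDL.

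By gene counts, none of the 6 paralogues passed edgeR's quasi-likelihood test at an adjusted p under 0.05 in undifferentiated homozygous against WT cells, where 3.67% of all tested genes did. An unadjusted p under 0.05 was reached by 2 of the 6, against 15.3% of all genes, and DESeq2 called those 2, against 5.6%. HNRNPA2B1 was 94.3, 110 and 76.6 CPM in WT replicates 1, 2 and 3, and 48.6, 62.5 and 43.4 CPM in homozygous replicates 1, 2 and 3. All homozygous libraries were below all WT libraries, and the log2 fold change was -0.87 (SE 0.228, adjusted p = 0.0635). HNRNPAB was 58.1, 35.9 and 42.2 CPM in WT and 69.8, 85.4 and 97.3 CPM in homozygous libraries, higher in every homozygous library, with a log2 fold change of 0.88 (SE 0.245, adjusted p = 0.0774). The DESeq2 adjusted p was 0.0146 for HNRNPA2B1 and 0.0331 for HNRNPAB. Without WT replicate 3, edgeR called HNRNPA2B1 (log2 fold change -0.99, adjusted p = 0.0437). The log2 fold changes of the other members were 0.46 for HNRNPA3, -0.55 for HNRNPA0, 0.14 for HNRNPD and 0.19 for HNRNPDL. The mesenchymal list summed to 21.3 to 27.5 CPM in WT and 81.8 to 120 CPM in homozygous libraries, with 3 and 5 of its 5 genes at a mean of 1 CPM or more.

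In differentiated homozygous against WT cells none of the 6 was called by edgeR or DESeq2, where 6.08% and 5.48% of all genes were, and none reached an unadjusted p under 0.05, where 17.6% did. The log2 fold changes ran from -0.28 for HNRNPAB to 0.25 for HNRNPA0. Heterozygous against WT cells, a comparison that shares the same WT libraries, also gave no call among the 6 by edgeR or DESeq2, where 16.4% and 13.0% of genes were called. An unadjusted p under 0.05 was reached by 1 of the 6, against 27.8% of genes. That member was HNRNPDL, with 54.1, 55.4 and 54.9 CPM in WT and 36.9, 36.8 and 48.4 CPM in heterozygous libraries. Every heterozygous library was lower, with a log2 fold change of -0.40 (SE 0.15, adjusted p = 0.0715). Without heterozygous replicate 3 the change was -0.54 and was called (adjusted p = 0.00818). That library differed from heterozygous replicates 1 and 2 by a chi-square per gene of 20.0 and 18.7, against 9.52 between those 2. The mesenchymal list summed to 46.7 to 51.4 CPM in heterozygous and 17 to 25.3 CPM in WT libraries.

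Homozygous against heterozygous differentiated cells gave 2 calls among the 6 paralogues, where 15.9% of genes were called. HNRNPDL was 62.8, 58.4 and 50.9 CPM in homozygous libraries, all above the heterozygous ones, and rose in homozygous relative to heterozygous cells by a log2 fold change of 0.46 (SE 0.15, adjusted p = 0.0336). HNRNPAB was 24.2, 26.9 and 25.9 CPM in homozygous and 43.9, 31.6 and 31.3 CPM in heterozygous libraries, a log2 fold change of -0.50 (SE 0.171, adjusted p = 0.0434). Both calls rested on single libraries. HNRNPDL had an adjusted p of 0.116 without heterozygous replicate 1, 0.109 without heterozygous replicate 2, 0.174 without homozygous replicate 1 and 0.0942 without homozygous replicate 2. HNRNPAB changed by -0.33 with an adjusted p of 0.262 without heterozygous replicate 1, and lost its call without homozygous replicate 1 (0.15), 2 (0.0967) or 3 (0.0827). HNRNPA0 reached 0.54 with an adjusted p of 0.0521, and 0.64 (0.0269) without heterozygous replicate 3, the library described above. The mesenchymal list summed to 26.2 to 27.8 CPM in homozygous libraries, below the heterozygous ones.

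In the kidney line none of the 6 was called by edgeR or DESeq2, where 5.84% and 6.32% of genes were. An unadjusted p under 0.05 was reached by 1 of the 6, against 17.9% of genes. HNRNPA3 was 46.1, 32.2 and 38.1 CPM with WT and 28.9, 22.4 and 18.8 CPM with D262V. Every D262V library was lower, with a log2 fold change of -0.67 (SE 0.264, adjusted p = 0.156). The mesenchymal list summed to 63.2 to 73.5 CPM with WT and 46.2 to 142 CPM with D262V. Among 26 other hnRNP and related genes listed, gene counts called 0 of 19 tested in undifferentiated cells, 0 of 25 in differentiated homozygous cells and 1 of 25 in heterozygous cells, HNRNPH2 (-0.54). In the kidney line 2 of 23 rose, HNRNPUL1 (1.20) and HNRNPL (1.11). Between homozygous and heterozygous cells 2 of 25 were called, HNRNPU (0.56) and PCBP2 (-0.42).

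The gene counts held few of the reads that covered these genes. In WT libraries they amounted to 1.17% to 14.2% of the reads over the single most-read junction of the same gene, apart from 41.4% for HNRNPA0 in the kidney line. Reads that matched no feature made up 92.2% to 94.6% of the counted total. HNRNPAB overlaps PHYKPL on the other strand, so its gene counts depend on the strand setting directly. The sources used here do not give the treatment of reads shared with processed pseudogenes of this family. A second measure was therefore made for each gene within each comparison, the sum of reads over its listed splice junctions, each junction taken once and scaled to CPM of junction reads. It reads only the junctions that the splice tables list, so HNRNPA0 and HNRNPAB had no value in undifferentiated cells, and HNRNPA0 and HNRNPDL had none in differentiated cells.

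By junction-read sums, HNRNPA2B1, HNRNPA3 and HNRNPDL fell in undifferentiated homozygous cells. These were 3 of 4 members with a value, where 5.89% of all tested genes fell and 11.1% changed in either direction. HNRNPDL was 1712, 1968 and 1375 junction CPM in WT and 972.5, 911.1 and 951.5 in homozygous libraries. The groups did not overlap, and the log2 fold change was -0.83 (SE 0.129, adjusted p = 1.48e-04, edgeR). HNRNPA3 was 426.8, 400.4 and 426.2 junction CPM in WT and 292.7, 283.4 and 250.5 in homozygous libraries, a log2 fold change of -0.60 (SE 0.131, adjusted p = 0.00367). HNRNPA2B1 was 794.2, 1027 and 927.3 junction CPM in WT and 650.6, 569.4 and 571.4 in homozygous libraries, lower in every one, with -0.62 (SE 0.127, adjusted p = 0.00225). With only the junctions whose usage was not called as changed, HNRNPA2B1 instead gave 0.193 (adjusted p = 0.53, edgeR). That sum leaves out, by construction, a spliced junction described under splicing below, which held 4299 of 5540 reads in WT replicate 1. It therefore cannot tell a lower gene level from the usage change. HNRNPA3 and HNRNPDL had no called junction to leave out, though their uncalled usage differences reached -17.94 and -17.69 points. Gene counts of the same libraries gave log2 fold changes of 0.46 for HNRNPA3 and 0.19 for HNRNPDL, of the opposite sign and not called, and -0.87 for HNRNPA2B1.

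HNRNPD was 503.5, 604.1 and 769.1 junction CPM in WT and 515, 552.3 and 502.2 in homozygous libraries, overlapping groups, with a log2 fold change of -0.26 (SE 0.142, adjusted p = 0.291). Without WT replicate 1 it was -0.40 and was called (adjusted p = 0.0397). The junction sum of HNRNPA1 itself fell by 0.37 on the log2 scale (adjusted p = 0.0259). Of 26 other hnRNP and related genes listed, 9 of 14 with a value fell and none rose, among them HNRNPM (-0.88) and HNRNPH3 (-0.74). The median log2 fold change was -0.47 in that list and -0.61 over the 4 paralogues, against 0.00 over all genes tested. The mesenchymal list differed between these groups as given above.

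In differentiated homozygous cells, HNRNPAB and HNRNPD fell by junction-read sums. They were 2 of 4 members with a value, where 16.1% of genes fell and 32.7% changed either way, so the count should be read against a high background. HNRNPAB was 695.4, 593.2 and 548.9 junction CPM in WT and 468.1, 430.8 and 506.3 in homozygous libraries, with no overlap, a log2 fold change of -0.39 (SE 0.0856, adjusted p = 4.73e-04). HNRNPD was 336.6, 303.1 and 290.7 in WT and 255.8, 273.8 and 265.4 in homozygous libraries, a change of -0.23 (SE 0.0802, adjusted p = 0.0261). The HNRNPD call was lost without WT replicate 1 (-0.17, adjusted p = 0.15), WT replicate 2 (0.0569), homozygous replicate 1 (0.119) or homozygous replicate 3 (0.0664). HNRNPA2B1 was 8318, 8265 and 7787 in WT and 7420, 6660 and 7218 in homozygous libraries. All 3 homozygous libraries were lower, and the change of -0.19 had an adjusted p of 0.0527, but DESeq2 called it (0.0198), as did edgeR without WT replicate 3 (0.0179). HNRNPA3 had -0.09 (adjusted p = 0.379). The neuronal and noradrenergic lists were higher and the mesenchymal list slightly higher in these homozygous libraries, with the values given above. Among the other hnRNP genes listed, 4 of 16 fell, among them RALY (-0.36) and HNRNPH1 (-0.26), and 1 rose, TIA1 (0.21).

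Heterozygous cells, set against the same WT libraries, showed a lower HNRNPAB sum as well. It was 1 of 4 members called, where 11.7% of genes fell and 24.8% changed. The sum was 687.8, 659.5 and 591.6 junction CPM in WT and 467.9, 518.4 and 432 in heterozygous libraries, with no overlap and a log2 fold change of -0.45 (SE 0.113, adjusted p = 0.00886). The call was lost with the single most-read junction (-0.20, adjusted p = 0.285) and without WT replicate 1 (0.0576) or WT replicate 2 (0.0515). HNRNPA2B1, HNRNPA3 and HNRNPD had changes of -0.15, 0.21 and 0.08 with adjusted p of 0.317, 0.202 and 0.661. Among the other hnRNP genes listed, 3 of 21 fell, among them HNRNPUL1 (-0.50), and PCBP2 rose (0.51). The mesenchymal list was higher in the heterozygous libraries, as given above. The gene counts of HNRNPAB were not called, with means of 31.1 ± 4.27 CPM in WT, 25.7 ± 1.38 in homozygous and 35.6 ± 7.14 in heterozygous cells.

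In the kidney line all 6 paralogues had a value, and HNRNPA3 alone passed the test, where 8.99% of genes fell and 16.6% changed. HNRNPA3 was 595.8, 549.3 and 578.8 junction CPM with WT and 426.8, 494.7 and 466.1 with D262V. All D262V libraries were lower, with a log2 fold change of -0.32 (SE 0.0851, adjusted p = 0.00811). Without D262V replicate 1 the adjusted p was 0.0853. HNRNPAB had -0.21 (adjusted p = 0.094), HNRNPD -0.17 (0.127), HNRNPDL 0.10 (0.436), HNRNPA0 0.11 and HNRNPA2B1 0.02. With the single most-read junction, a measure that called 15.1% of genes, HNRNPAB was called at -0.27 (adjusted p = 0.0495) and HNRNPA0 at 0.63 (0.0214). The HNRNPA0 reads are only those of the 2 short gaps described under splicing, and its most-read one is the gap whose usage rose, so this value restates that shift and is no gene level. Of the other hnRNP genes listed, 1 of 16 rose, HNRNPA1L2 (0.78), and 1 fell, SYNCRIP (-0.31).

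**Figure D2:**
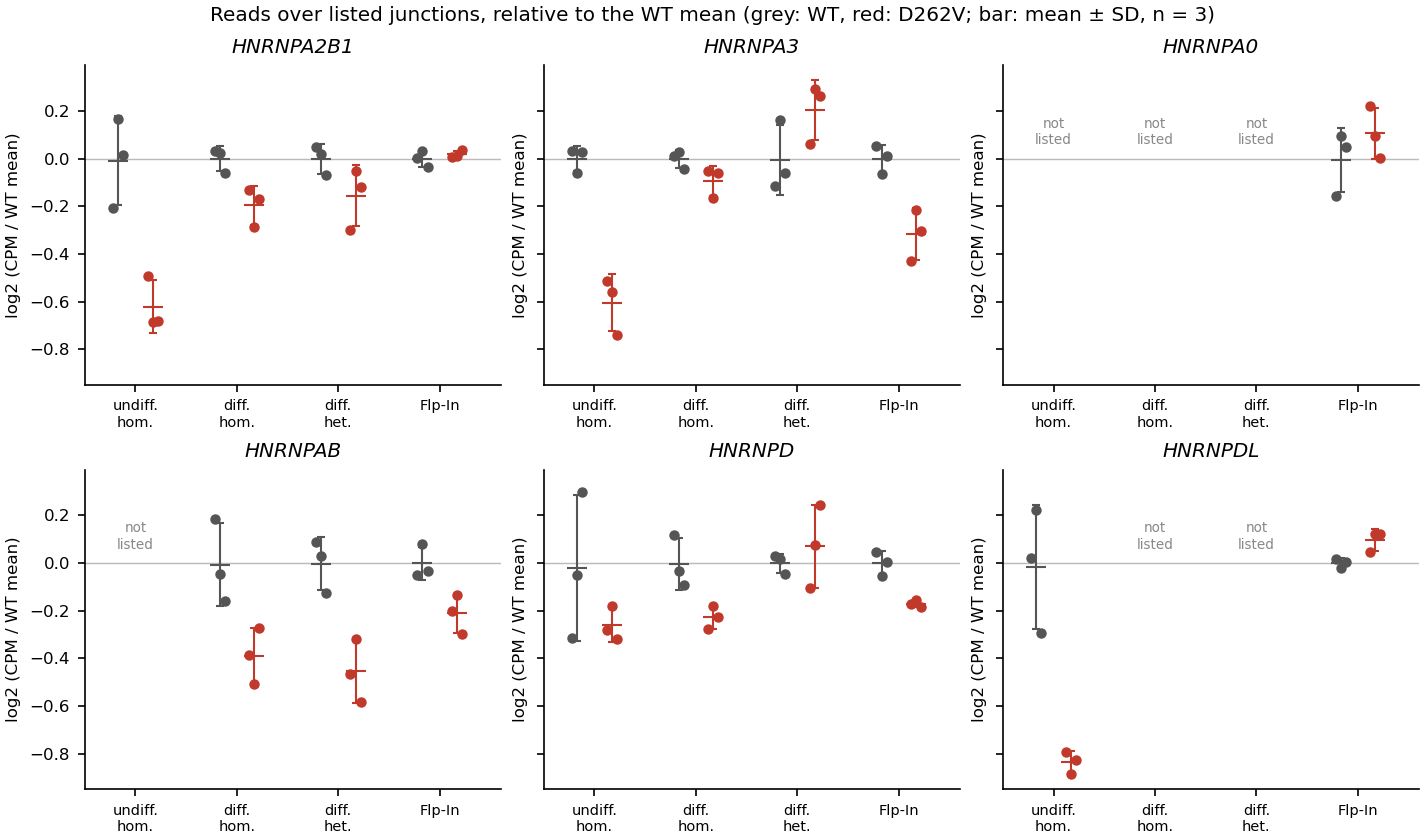
Junction-read sums of each paralogue as log2 of CPM over the WT mean (vertical axis) in the libraries of the 4 comparisons (horizontal axis), WT in grey and D262V in red, with bars for the mean ± SD of 3. In the undifferentiated comparison the homozygous libraries of HNRNPDL, HNRNPA3 and HNRNPA2B1 lie below every WT library, with fitted log2 fold changes of -0.83, -0.60 and -0.62. The HNRNPA2B1 sum is mostly reads of a junction whose usage also changed.

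Splicing was followed by junction usage, the authors' percentage of reads at a choice between splice sites that take a given junction. A usage difference was called where the authors' adjusted p-value was under 0.05, the means differed by at least 10 percentage points, no library had fewer than 20 reads at the choice and the groups did not overlap. Of the paralogues' entries, 2 of 36 were called in undifferentiated homozygous against WT cells, where 2.05% of all listed entries were. None of 189 was called in differentiated homozygous cells (background 1.04%) and none of 128 in heterozygous cells (3.50%). In the kidney line 2 of 41 were called (1.29%). The pair of calls in each case were complementary entries of 1 choice. By the authors' deposited adjusted p alone, 2, 0, 3 and 8 of these entries were under 0.05, against 5.32%, 2.86%, 8.67% and 4.0% of all entries. Of the 3 in heterozygous cells, 2 were HNRNPA2B1 entries, with a lowest authors' deposited adjusted p of 1.21e-04. None of the 3 was called with a minimum of 5 points either.

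The undifferentiated calls were the splicing and the retention of the 156-nucleotide HNRNPA2B1 intron at chr7:26192338-26192493, 8.25 kb from the gene's start. In WT replicates 1, 2 and 3, 4299, 4739 and 3221 reads spliced it and 2009, 1832 and 1469 crossed into it at one boundary. In homozygous replicates, 3181, 2126 and 2185 spliced it and 3853, 2112 and 2636 crossed. Spliced usage was therefore 68.2, 72.1 and 68.7% in WT and 45.2, 50.2 and 45.3% in homozygous libraries. More of this intron was retained in every homozygous library, by 22.7 percentage points (the authors' deposited adjusted p = 0.0405). At the other boundary the difference was -16.98 points and did not pass (the authors' deposited adjusted p = 0.0653). With 3 libraries against 3, an exact two-sided permutation test cannot give a p below 0.1, which it gave here.

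In differentiated D262V libraries the spliced usage of this intron was lower by amounts that were not called. Spliced usage was 78.2, 77.1 and 76.2% in WT and 74.2, 72.3 and 71.7% in homozygous libraries, a difference of -4.42 points (the authors' deposited adjusted p = 0.519). In heterozygous libraries it was 68.1, 71.0 and 65.0%, a difference of -9.07 points (the authors' deposited adjusted p = 0.0892). Both D262V genotypes lay below every WT library, but they share those libraries. The share of all entries with groups apart was not computed. At the other boundary the differences were -3.08 points in homozygous and -5.85 in heterozygous libraries (the authors' deposited adjusted p = 0.248 and 0.0544). Whether the difference varied between undifferentiated and differentiated cells was not tested. Kidney-line tables listed the junction only within a larger choice, where its usage was 93.4 to 95.04% with WT and 94.1 to 94.9% with D262V.

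The kidney-line calls were in HNRNPA0, a gene whose RNA has no introns in the textbook account. The 2 entries were gaps of 24 and 72 nucleotides that share an end, at chr5:137753360-137753383 and chr5:137753360-137753431. The short gap took 43.8, 50.3 and 49.1% of the reads with WT and 28.2, 23.8 and 24.0% with D262V, a fall of 22.4 points (the authors' deposited adjusted p = 0.00768). These rested on 37 to 81 reads of the short gap and 72 to 153 of the long one per library. Whether such short gaps are splicing was not tested.

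HNRNPA3 had no call in any comparison at a choice after chr2:177219314 between a junction of 93 nucleotides and one of 2745. Its WT and D262V libraries did not overlap, but the share of all entries with groups apart was not computed. The differentiated comparisons also share the same WT libraries. Use of the short junction was 85.4, 89.3 and 83.7% in undifferentiated WT and 73.7, 66.9 and 64.0% in homozygous libraries, a difference of -17.94 points (the authors' deposited adjusted p = 0.108). In the kidney line it was 87.1, 87.7 and 88.5% with WT and 81.5, 80.6 and 79.7% with D262V, a difference of -7.17 points (the authors' deposited adjusted p = 0.0195), short of the 10-point minimum. In differentiated cells the direction was the opposite. The short junction took 83.6, 82.2 and 83.0% in WT, 86.2, 86.6 and 85.5% in homozygous and 87.0, 87.8 and 89.0% in heterozygous libraries. Those differences were 3.18 and 5.04 points (the authors' deposited adjusted p = 0.444 and 0.0879).

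HNRNPDL had its largest usage differences at the junctions around an exon of 105 nucleotides. Use of the 1153-nucleotide junction that skips it, chr4:82424883-82426035, was 83.4, 91.8 and 86.0% in undifferentiated WT and 67.3, 69.1 and 71.7% in homozygous libraries (-17.69 points, the authors' deposited adjusted p = 0.143). Kidney-line usage was 86.2, 84.8 and 87.2% with WT and 91.1, 93.4 and 92.6% with D262V (6.33 points, the authors' deposited adjusted p = 0.0338). There the 369-nucleotide junction that joins the exon, chr4:82425667-82426035, differed by -6.55 points (the authors' deposited adjusted p = 0.0207). Use of the skipping junction differed with opposite signs in the 2 lines, neither difference was called, and the difference between them was not tested.

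The remaining largest differences of each member were not called. The largest HNRNPD difference in undifferentiated cells was -1.77 points, at chr4:82354154-82355302. In differentiated homozygous cells an HNRNPA3 junction of 160 nucleotides differed by 25.7 points, but on as few as 21 reads per library (the authors' deposited adjusted p = 0.47). A junction of 10416 nucleotides listed under HNRNPA2B1, chr7:26174782-26185197, lay wholly beyond the end of the annotated gene. Its usage differed by 13.99 points in homozygous and 20.4 in heterozygous cells (the authors' deposited adjusted p = 0.43 and 0.525). Heterozygous libraries overlapped WT there. HNRNPAB differed by at most 0.22 points in differentiated cells. HNRNPD differed by 5.29 points in homozygous and 7.55 points in kidney-line cells at the junctions of its 147-nucleotide exon, and by 8.69 points in heterozygous cells at a choice read as few as 132 times. Kidney-line differences reached 10.04 points for HNRNPAB, around its 141-nucleotide exon, and 8.85 points for HNRNPA2B1, around its 36-nucleotide exon (the authors' deposited adjusted p = 0.341 and 0.101).

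**Figure D3:**
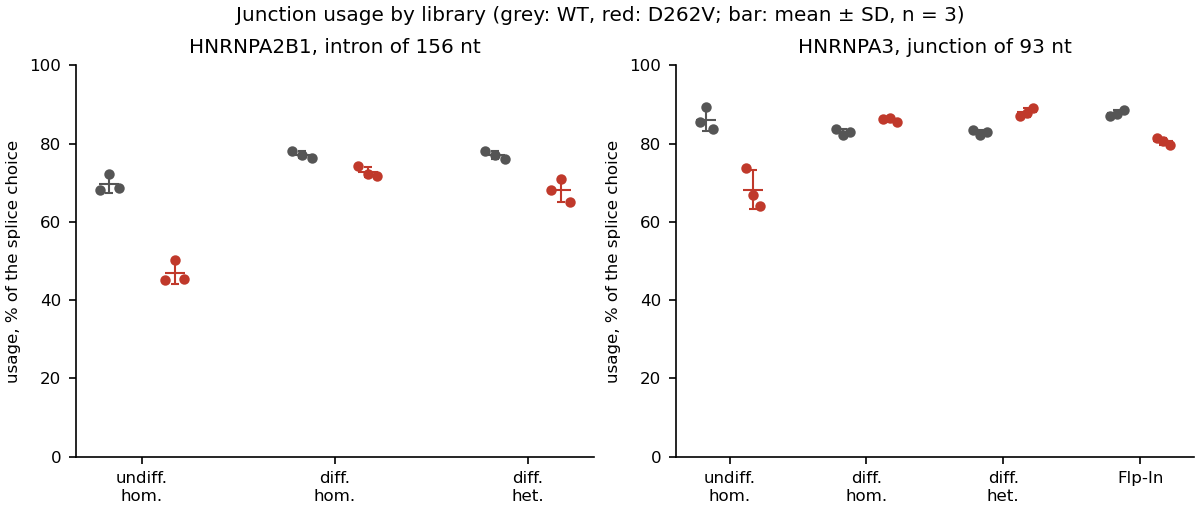
Junction usage (vertical axis, percent of reads at the choice) in each library for the HNRNPA2B1 intron of 156 nucleotides and the HNRNPA3 junction of 93, WT in grey and D262V in red by comparison (horizontal axis), with bars for the mean ± SD of 3. Undifferentiated homozygous libraries splice the HNRNPA2B1 intron at 45.2 to 50.2%, against 68.2 to 72.1% in WT.

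Exon shares put the alternative exons of the family on 1 scale. The share of an exon is the mean of its 2 joining junctions over that mean plus the skipping junction, for exons of 30 to 300 nucleotides with enough reads. The rule was chosen after values had been seen. It gave 14 values for 7 exons of HNRNPA2B1, HNRNPAB, HNRNPD and HNRNPDL. WT and D262V libraries did not overlap in 11 of these 14, each with an exact two-sided permutation p of 0.1, the smallest that 3 against 3 allows. Among all exons that the rule gave from the listed junctions, groups were apart for 36.7% in undifferentiated and 34.2% in differentiated homozygous comparisons. The share was 48.0% in heterozygous and 52.6% in kidney-line comparisons. Those junctions come from events that the authors had already selected as differential. The paralogues had 1 of 1, 3 of 4, 2 of 4 and 5 of 5.

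The exon of 36 nucleotides at chr7:26197830-26197865 distinguishes the B1 from the A2 isoform of HNRNPA2B1. With WT hnRNPA1 in the kidney line its share was 33.5, 31.8 and 34.7%, and with D262V 43.1, 39.9 and 42.7%, a difference of 8.58 points. In differentiated cells it was lower and the gap narrower, at 10.7, 10.3 and 10.5% in WT and 12.4, 12.7 and 12.2% in homozygous libraries. The share was higher in every D262V library than in any WT library of the same comparison.

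HNRNPA2B1 has further alternative exons beside its retained intron, towards the end of the gene. The 229-nucleotide exon at chr7:26191421-26191649 had shares of 24.3, 23.0 and 17.1% in differentiated WT and 38.7, 40.1 and 39.1% in heterozygous libraries, a difference of 17.8 points. In homozygous libraries it was 24.3, 22.2 and 26.5%, overlapping WT. With the less-read of its 2 joining junctions alone the heterozygous difference was 6.65 points. The 136-nucleotide exon at chr7:26190992-26191127 had 78.5, 76.1 and 78.9% in differentiated WT, 83.1, 82.9 and 83.5% in homozygous and 75.4, 80.5 and 83.7% in heterozygous libraries. The homozygous libraries lay above WT and the heterozygous ones spanned it. Kidney-line shares were 83.9, 83.7 and 84.5% with WT and 87.3, 86.4 and 91.0% with D262V.

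HNRNPAB makes a long and a short protein isoform that differ by an exon of 141 nucleotides, at chr5:178210131-178210271. Its share was 78.6, 83.2 and 80.1% with WT and 72.3, 78.1 and 70.4% with D262V in the kidney line, a difference of -7.03 points. All D262V libraries had a lower share than any WT library, and the listed junctions gave no share in SH-SY5Y.

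HNRNPD makes 4 protein isoforms through alternative exons, of which the one of 147 nucleotides lies at chr4:82356536-82356682. Its share was 35.1, 33.4 and 34.9% in differentiated WT, 38.2, 40.0 and 41.2% in homozygous and 41.9, 40.3 and 39.4% in heterozygous libraries. Both genotypes lay above every WT library, by 5.33 and 6.07 points. Kidney-line D262V libraries lay below WT, with 47.1, 48.0 and 48.5% against 37.3, 43.8 and 43.1%, a difference of -6.49 points. The other alternative exon of HNRNPD, of 57 nucleotides at chr4:82371527-82371583, differed by 0.09 points in heterozygous cells, with overlapping groups.

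The 105-nucleotide exon of HNRNPDL, chr4:82425562-82425666, also differed with opposite signs in the 2 lines, without a test of that contrast. Its share was 12.8, 10.9 and 15.6% in undifferentiated WT and 26.6, 28.2 and 22.1% in homozygous libraries, a difference of 12.5 points. Kidney-line shares were 11.8, 12.6 and 10.5% with WT and 6.96, 5.20 and 5.39% with D262V, a difference of -5.78 points. The lengths of the 36, 57, 105, 141 and 147-nucleotide exons are multiples of 3, and those of the 136 and 229-nucleotide exons are not.

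**Figure D4:**
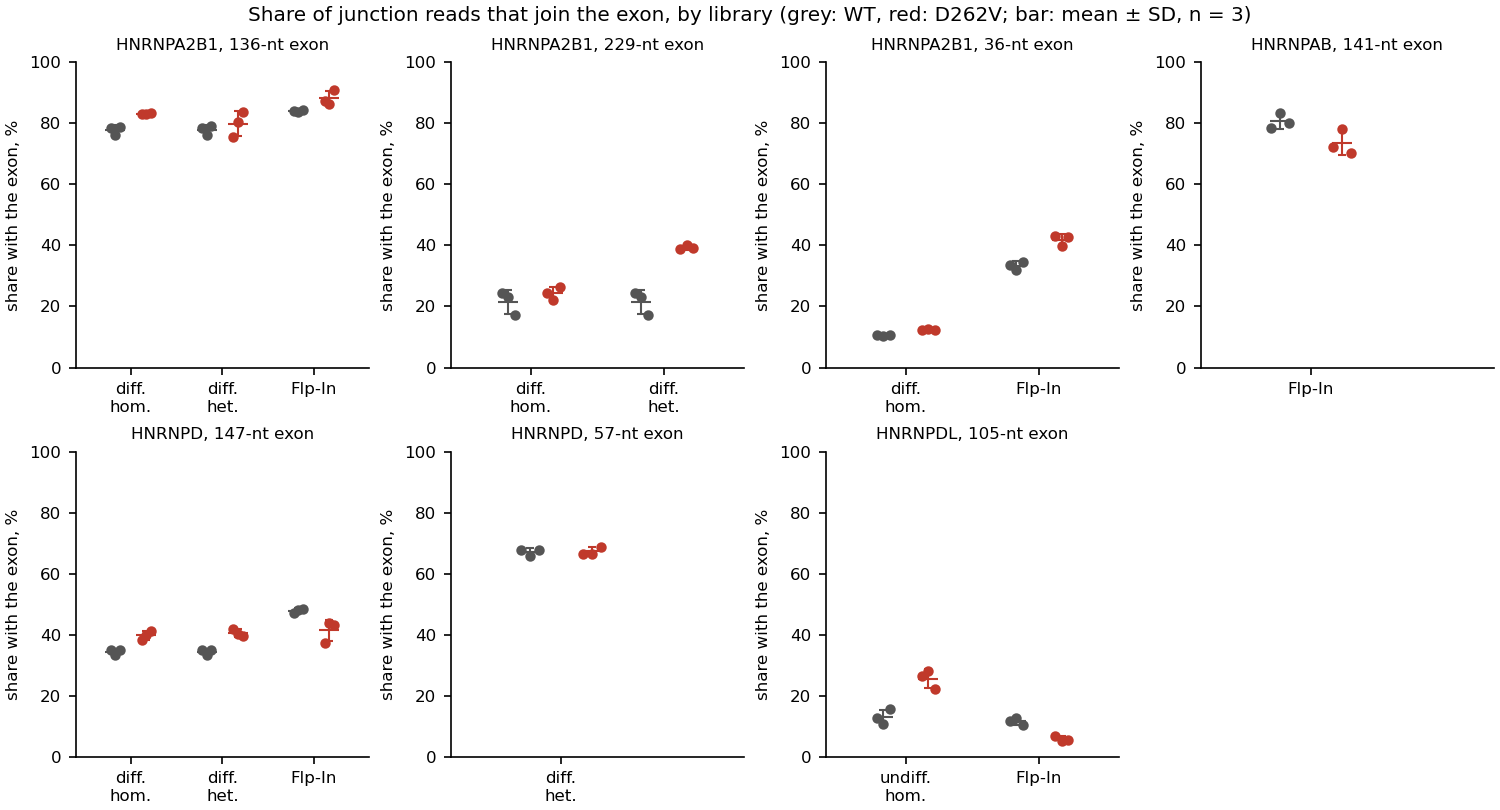
Exon share (vertical axis, percent) in each library for the 7 alternative exons of HNRNPA2B1, HNRNPAB, HNRNPD and HNRNPDL, WT in grey and D262V in red by comparison (horizontal axis), with bars for the mean ± SD of 3. The HNRNPD exon of 147 nucleotides lies higher in differentiated D262V libraries (38.2 to 41.9%) than in WT and lower in D262V kidney-line libraries (37.3 to 43.8%) than in WT.

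The irCLIP lists showed hnRNPA1 crosslinked to RNA of all 6 paralogues in both lines, in the WT and the D262V lists alike. The D262V lists could also hold clusters of WT hnRNPA1. The SH-SY5Y labels give no zygosity, and the fate of the kidney line's own hnRNPA1 is not stated. Clusters were assigned by coordinates and strand, and since each list pools its replicates there is no replicate error. HNRNPA2B1 had 30 clusters in SH-SY5Y WT, 34 in SH-SY5Y D262V, 33 in kidney-line WT and 29 in kidney-line D262V. That is 2.77, 3.14, 3.05 and 2.68 clusters per kb of gene, against a median of 0.871, 0.855, 0.896 and 0.863 over the protein-coding genes with clusters. HNRNPA2B1 lay at the 98.9th to 99.5th percentile of those genes by density in the 4 lists. HNRNPAB lay at percentiles of 87.3 to 98.0 and HNRNPDL at 89.7 to 95.1. Those of HNRNPA3, HNRNPA0 and HNRNPD ran from 64.1 to 92.9. Density was not adjusted for the RNA level of a gene. HNRNPD, a gene of 21.5 kb, had 31, 28, 22 and 25 clusters, or 1.02 to 1.44 per kb. HNRNPA3 had 12, 13, 11 and 15, HNRNPA0 9, 12, 11 and 9, HNRNPAB 11, 8, 9 and 13, and HNRNPDL 11, 10, 12 and 12.

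The highest cluster score among the 6 paralogues belonged to HNRNPD in every list. The scores are the authors', the sources used here give no unit for them, and they are used only to rank clusters within a list. The top HNRNPD cluster scored 3189 in SH-SY5Y WT, above 99.9% of the clusters of that list. It lay at chr4:82370533-82370731, between the exons that flank the 57-nucleotide exon, and did not overlap that exon. In SH-SY5Y D262V the top cluster was another, at chr4:82362447-82362645, with 2889. The top cluster of HNRNPA2B1 in SH-SY5Y WT, with 1099, lay at chr7:26198656-26198854, between the first exon and the 36-nucleotide exon. In the 4 lists in the same order, 12, 9, 9 and 9 clusters lay between the exons that flank the 36-nucleotide exon. The retained HNRNPA2B1 intron was overlapped by 1, 1, 3 and 3 clusters. The region around the 105-nucleotide exon of HNRNPDL had 1, 0, 2 and 2, and the long HNRNPA3 junction spanned 5, 4, 4 and 4. No cluster lay between the exons that flank the 141-nucleotide exon of HNRNPAB or the 147-nucleotide exon of HNRNPD, or over the HNRNPA0 gaps, in any list.

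Clusters of the WT and D262V lists lay at largely the same places in these genes. The part of any WT protein in the D262V lists was not tested. Of 104 SH-SY5Y WT clusters in the 6 genes, 102 were overlapped by at least 1 nucleotide of a D262V cluster on the same strand (98.1%, exact 95% binomial interval 93.2 to 99.8%). Of 105 D262V clusters, 92 were overlapped by a WT cluster (87.6%, 79.8 to 93.2%). The kidney-line shares were 93 of 98 WT clusters (94.9%, 88.5 to 98.3%) and 96 of 103 D262V clusters (93.2%, 86.5 to 97.2%). Over all clusters of the lists the same 4 shares were 84.8, 89.2, 83.0 and 87.5%. The intervals cover counting error only, and they take clusters as independent although some clusters of a list overlap one another.

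**Figure D5:**
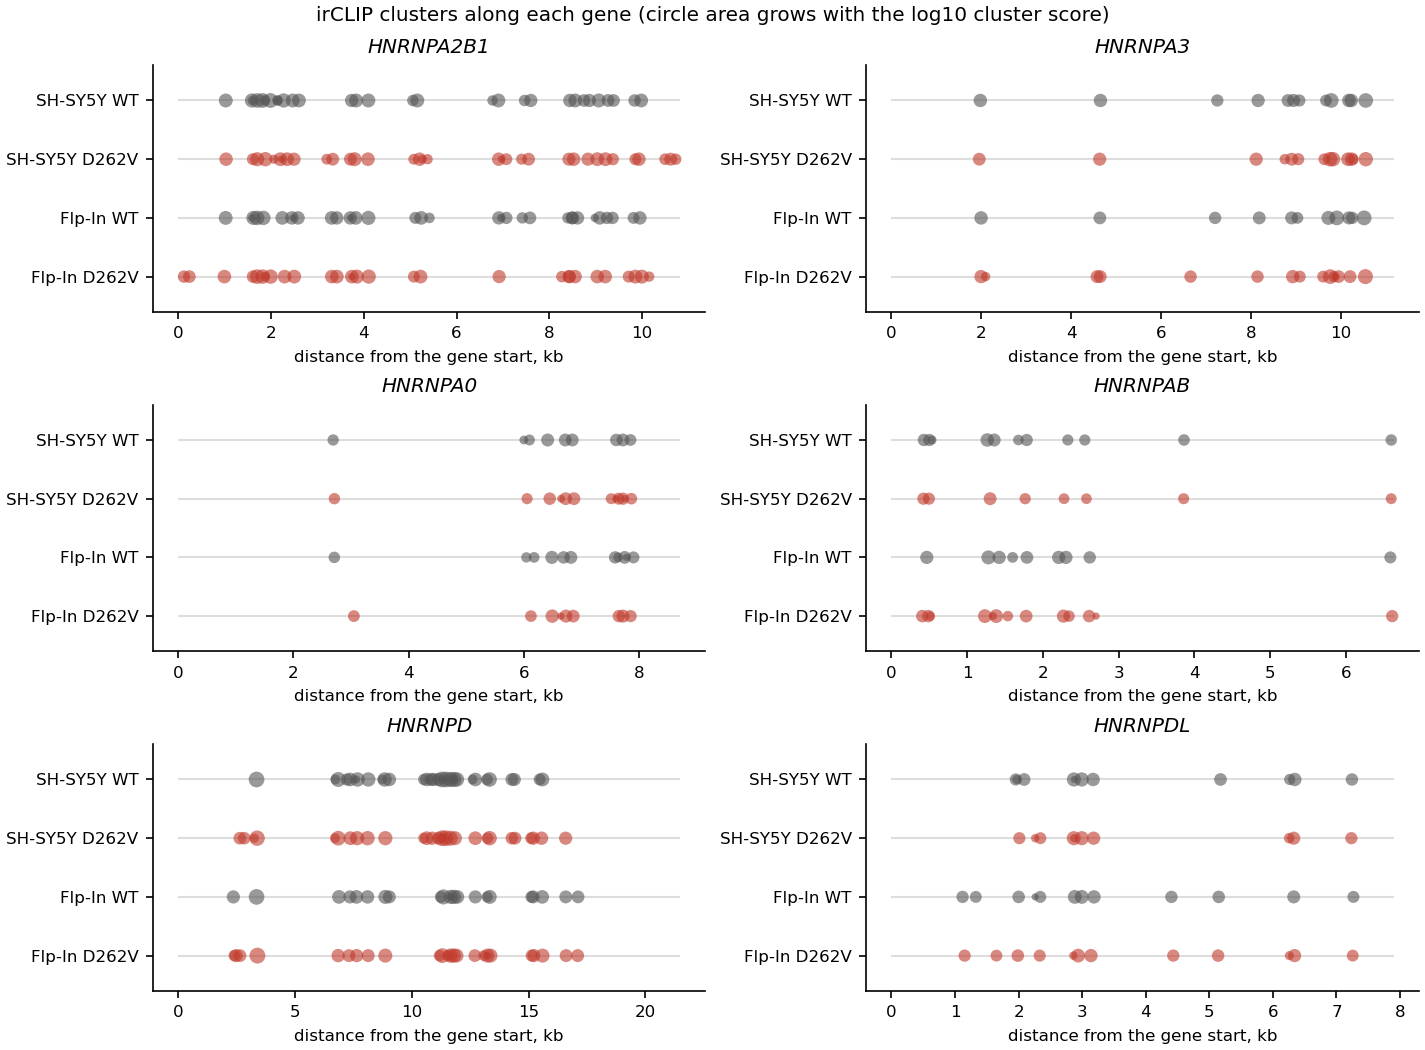
Positions of hnRNPA1 irCLIP clusters along each paralogue (horizontal axis, kb from the gene's start) in the 4 lists (vertical axis), WT in grey and D262V in red, with circle area growing with the log10 score. WT and D262V clusters sit at much the same places, and HNRNPA2B1 carries 29 to 34 clusters per list over 10.8 kb.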

How the data were processed

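The samples were 21 poly(A) RNA-seq libraries and 12 irCLIP samples in 4 pooled lists. Reads were aligned and counted by the authors with STAR 2.5.3a and HTSeq on hg38, and DESeq2 and Cufflinks were also used, per the submitters' processing notes, which give no settings. The authors deposited raw counts per gene, splice-junction reads as raw counts, junction usage as a percent of reads at each choice, p-values with their adjusted form, and irCLIP clusters with a score of unstated unit. No column of per-sample values was left unmapped.

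The test on gene counts was edgeR's quasi-likelihood test (version 4.0.16, with limma 3.58.1 in R 4.3.3) after TMM scaling and filterByExpr, with Benjamini-Hochberg adjustment over all genes of a table and calls at 0.05. DESeq2 1.42.0 was an alternative. The same test was run on each gene's summed junction reads. Usage calls combined the authors' deposited adjusted p with at least 10 points, 20 reads and groups apart. Exon shares covered exons of 30 to 300 nucleotides in the RefSeq gene with junctions of at least 60 nucleotides, each joining junction averaging at least 50 reads and within 4-fold of the other, an overall share of 5 to 95% and at least 20 reads in every library. irCLIP overlap needed 1 nucleotide on the same strand. All 6 genes and, in each comparison, the 2 junctions of each with the largest usage difference were to be named, with the 3 genes of most similar pattern per member, the top cluster per list and up to 3 called genes of the other hnRNP list. Members and lists were chosen with earlier results of these data known. Reads in genes per library are given with the results. The gene counts averaged 34.7 to 1741 reads per paralogue in the WT groups with listed junctions. Alternatives were another normalization, no filter, DESeq2, the replicate block, other thresholds and leaving out each library.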

Additional observations from a re-analysis of the deposited data

Results flagged for a closer look

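Some differences between D262V and WT had opposite signs in different cells, with every D262V library on one side of every WT library in each. They were picked by that rule. Groups were apart for 36.7% of exons from the listed junctions in undifferentiated, 34.2% in differentiated homozygous, 48.0% in heterozygous and 52.6% in kidney-line comparisons. For junction usage that share was not computed. The contrasts between the cells were not tested, and no explanation was weighed. The share of the HNRNPD exon of 147 nucleotides differed by 5.33 points in differentiated homozygous cells, 6.07 in heterozygous cells and -6.49 in the kidney line. The share of the HNRNPDL exon of 105 nucleotides differed by 12.5 points in undifferentiated cells and by -5.78 in the kidney line. Use of the HNRNPA3 junction of 93 nucleotides differed by -17.94 points in undifferentiated cells and -7.17 in the kidney line, against 3.18 in differentiated homozygous and 5.04 in heterozygous cells.

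The gene counts of HNRNPAB and HNRNPDL differed between the homozygous and heterozygous genotypes by the direct contrast (edgeR). The homozygous minus heterozygous log2 changes were -0.50 and 0.46. Both calls change when single libraries are left out, as given with the results.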

How the results depend on the processing

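Of 147 repeats of the main counts and shares under other settings, 124 gave the same reading, as did 509 of 547 repeats for single genes, junctions and exons. By gene counts in undifferentiated cells, DESeq2 and the fit with no filter on low counts each called 2 of the 6, against 5.6% and 3.83% of genes. Homozygous against heterozygous cells gave 0 calls with only those 6 libraries in the fit and 1 with the replicate block, where HNRNPAB had an adjusted p of 0.0611. Single most-read junctions gave 0 calls of 4 in heterozygous cells and 3 of 6 in the kidney line, against 25.2% and 15.1% of genes. A minimum of 5 points gave 6 usage calls of 41 in the kidney line, against 1.96% of all entries. Requiring 50% overlap gave 81.7% of shared WT clusters in SH-SY5Y and 78.6% in the kidney line. Leaving out 1 library at a time gave 0 to 1 gene-count calls in undifferentiated and in heterozygous cells, 0 to 3 in homozygous against heterozygous cells and 0 to 0 elsewhere. For junction sums it gave 3 to 4 calls in undifferentiated, 1 to 3 in homozygous, 0 to 1 in heterozygous and 0 to 1 in kidney-line cells. The usage calls stayed at 2, 0, 0 and 2. HNRNPA2B1 reversed to 0.193 with only junctions of unchanged usage, by construction of that sum. The causes of the other shifts were not tested.

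Replicate numbers did not pair the samples: correlations of same-numbered deviations ran from -0.0763 to 0.0957, apart from 0.302 for 1 pair in heterozygous junction sums. The block called HNRNPA2B1 in differentiated homozygous junction sums (adjusted p = 0.0281). Taking the less-read joining junction, an alternative chosen after seeing the data, moved the HNRNPA2B1 exon of 136 nucleotides to 3.21 points in homozygous and -6.87 in heterozygous cells, and the HNRNPDL exon in undifferentiated cells to 8.93. Few reads were counted for some genes, with WT means of 34.7 for HNRNPA0 in the kidney line and 37.0 for HNRNPA3 in undifferentiated cells.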
